A study of Rattus norvegicus with 8 samples.

Results

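The genes described here are 9 astrocyte genes that encode glutamate transporters, gap junction proteins, a water channel, a filament protein and markers of the cell type: Slc1a2, Slc1a3, Aqp4, Gfap, Gja1, Gjb6, Aldh1l1, S100b and Glul. They were taken by gene symbol from the 17168 genes listed for each library. All 9 were found, and all 9 were among the 11631 genes left by the low-count filter. RNA was sequenced from homogenate of the medial prefrontal cortex of male Sprague-Dawley rats. Of the 8 libraries, 4 were made from highly impulsive animals (HI, libraries HI1 to HI4) and 4 from animals of low impulsivity (LI, libraries LI1 to LI4), where impulsivity is that of motor responses. The score was the number of premature responses in a serial reaction time task with 1 choice, and HI rats lay in its upper quartile and LI rats in its lower quartile. The labels give no other difference between the groups and no age, litter, batch or date. They do not state that each library is a separate rat, so the p-values measure the spread between these libraries, which may in part be technical.

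Astrocytes clear glutamate from the synaptic cleft through the transporters GLT-1 (Slc1a2) and GLAST (Slc1a3), and glutamine synthetase (Glul) turns it into glutamine that is handed back to neurons. They are coupled into a network by gap junctions of connexin 43 (Gja1) and connexin 30 (Gjb6), and their endfeet on blood vessels carry the water channel aquaporin 4 (Aqp4). Gfap encodes the intermediate filament of fibrous and reactive astrocytes, S100b a calcium-binding protein, and Aldh1l1 a folate enzyme used as a general astrocyte marker.

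Total counts ranged from 7354416 to 9476656 in HI and from 7541110 to 9437857 in LI. Ribosomal RNA took 0.406% to 25.5% of the counts in HI and 0.418% to 6.42% in LI. HI4 and LI3 had the least of it and stood apart from the other 6 libraries on the first principal component of all genes, which held 51.7% of the variance. RNA of other cell classes was present. The summed level of 12 neuronal markers was 8590 to 16190 CPM in HI and 8495 to 13970 CPM in LI, where CPM is the count divided by the scaled library size. For 10 oligodendrocyte markers the sum was 2153 to 2354 CPM in HI against 1821 to 6942 CPM in LI, and for 6 markers of their precursors 271 to 355 CPM in HI against 273 to 412 CPM in LI. For 8 endothelial markers it was 279 to 382 CPM in HI against 279 to 383 CPM in LI. It was 254 to 317 CPM in HI and 329 to 359 CPM in LI for 10 microglial markers, and 84.4 to 1054 CPM in HI and 38.4 to 234 CPM in LI for 7 meningeal markers. Ependymal markers (3 genes) reached at most 10.1 CPM in HI and 13.4 CPM in LI. The 9 astrocyte genes summed to 4469 to 5712 CPM in HI and 4436 to 5691 CPM in LI. In homogenate, a lower share of astrocytes and less RNA per astrocyte cannot be told apart.

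The 9 genes covered a wide range of levels. On the TPM scale, which is per transcript length and so allows genes to be compared, S100b was highest at 1722 ± 373 TPM and Aldh1l1 lowest at 14.7 ± 3.31 TPM (SD, n = 8 libraries). Glul followed S100b at 1254 ± 103 TPM, then Slc1a2 at 599 ± 155, Slc1a3 at 412 ± 54.6 and Gja1 at 373 ± 77.5 TPM. Gfap stood at 261 ± 62.3, Aqp4 at 205 ± 58.1 and Gjb6 at 50.3 ± 17.6 TPM. The order was the same in all 8 libraries between S100b and Glul, between Glul and Slc1a2, between Aqp4 and Gjb6 and between Gjb6 and Aldh1l1. It was less firm in the middle. Slc1a2 exceeded Slc1a3 in 7 of 8 libraries, Slc1a3 exceeded Gja1 in 7, Gja1 exceeded Gfap in 7 and Gfap exceeded Aqp4 in 6, and the mean ± SD ranges of each of these neighbouring pairs overlapped. TPM counts only the listed transcripts, and the mean listed length of Slc1a2 was 1094 to 1101 bases in HI and 1100 to 1107 bases in LI. The place of Slc1a2 in this order depends on that listed length. In CPM, which is not divided by length, Slc1a2 averaged 343 in HI and 236 in LI. Slc1a3 averaged 761 and 752 CPM, Gja1 553 and 556, Aqp4 486 and 484, and Gfap 308 and 355.

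None of the 9 genes passed the threshold between HI and LI. Genes were called when edgeR's quasi-likelihood test gave them a p below 0.1 after Benjamini-Hochberg adjustment, the alpha stated in the design text. Over all 11631 genes, 0 passed, which is 0% of the genes tested. At an unadjusted p under 0.05 there were 1 of the 9 genes (Slc1a2) and 484 of all genes, or 4.16%. Of these, 3.07% of all genes were higher in HI, as Slc1a2 was, and 1.09% lower. All 9 had overlapping groups, whereas 3.46% of all genes had groups that lay apart, 2.31% with HI above and 1.14% with HI below. Of the 9, 4 had higher and 5 lower values in HI, beside 48.5% of all genes with higher values. The unadjusted p of the other 8 genes was 0.196 to 0.981 and the adjusted p of all 9 was 1.00, both by edgeR's quasi-likelihood test. The median log2 fold change of the 9 (HI minus LI) was -0.01, as was that of all genes. The median absolute log2 fold change was 0.09 for the 9 genes and 0.12 for all genes, beside a median standard error (SE) of 0.19 in both. DESeq2 called 0 of the 9 and 0.488% of the genes to which it gave an adjusted p. Fisher's exact test on counts summed within groups, the test named in the design text, called all 9, with 2 higher and 7 lower, but it ignores the spread between libraries and called 56.7% of all genes.

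**Figure D1:**
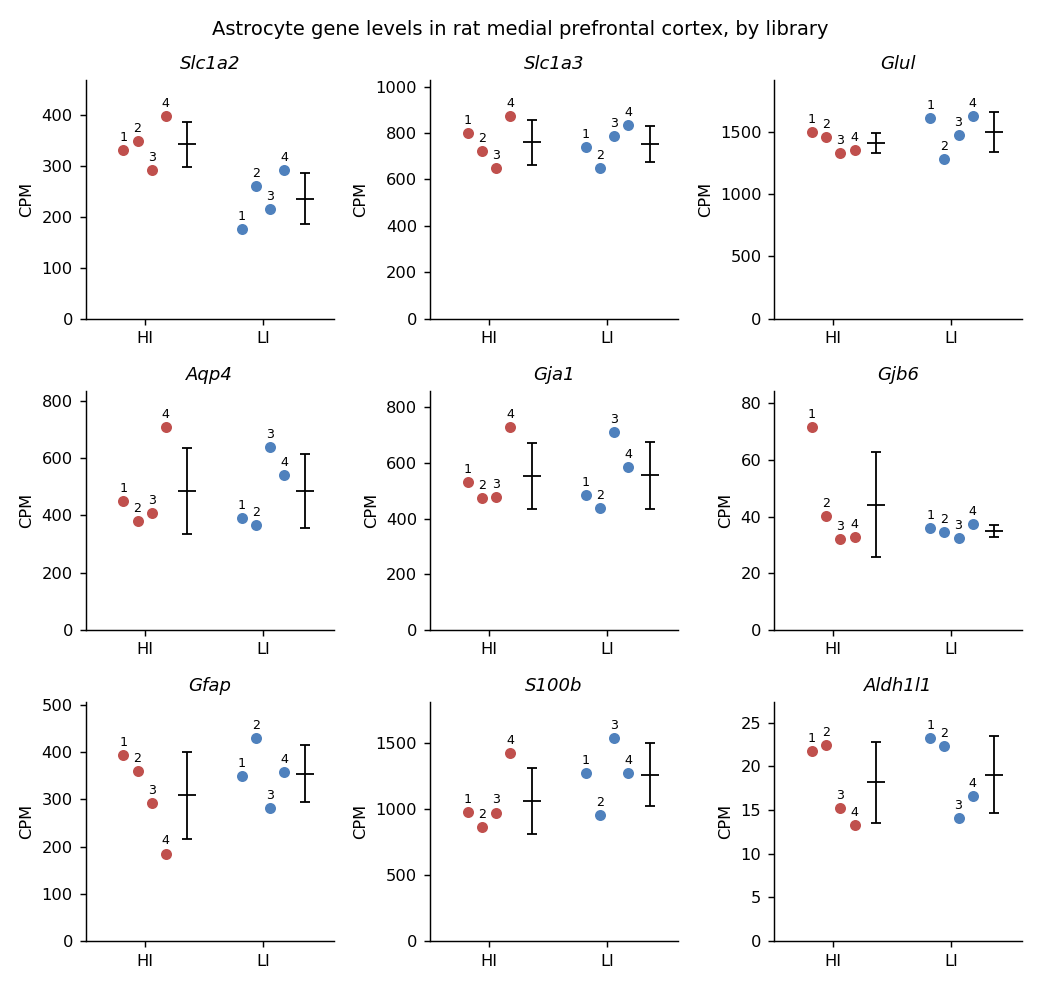
Level of each of the 9 astrocyte genes in CPM (y axis, linear from 0) in the 4 HI libraries and the 4 LI libraries, with the replicate number over each point and the mean ± SD at the right of each group. Slc1a2 is the gene in which the groups are nearest to separation, with HI between 291 and 398 CPM and LI between 176 and 292 CPM, and Gjb6 has 1 high library, HI1.

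Of the 2 glutamate transporters, Slc1a2 had the largest difference among the 9 genes and Slc1a3 nearly none. Slc1a2, which carries most glutamate uptake in the adult forebrain, stood at 332, 350, 291 and 398 CPM in HI1 to HI4, against 176, 261, 215 and 292 CPM in LI1 to LI4. The groups met at 1 point, where LI4 lay just above HI3, and every other HI library was above every LI library. HI averaged 343 ± 44.2 CPM and LI 236 ± 50.9 CPM (SD, n = 4 each). The log2 fold change was 0.54 ± 0.17 (SE), or 1.45-fold with a 95% interval of 1.12 to 1.88. Its unadjusted p was 0.00914 by edgeR's quasi-likelihood test, rank 92 of the 11631 genes, and its adjusted p was 1.00. Leaving out each library in turn gave 0.42 (without LI1) to 0.65 (without LI4). Leaving out both HI4 and LI3 gave 0.42. The sign was the same in all 28 alternatives run. With the log2 ribosomal RNA share of each library as a covariate, a fit added after the data were seen, Slc1a2 stood at 0.56 with an adjusted p of 0.0943 by edgeR and was the only 1 of the 9 past the threshold, in a fit that called 3.78% of all genes. In that fit the adjusted p was 0.546 without HI4 and 0.203 without LI3, and with the untransformed share it was 0.671, all by edgeR.

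Slc1a3, the transporter prominent in cerebellum and in developing brain, stood at 800, 723, 648 and 873 CPM in HI1 to HI4, against 738, 650, 788 and 834 CPM in LI1 to LI4. The groups overlapped over nearly their whole range. HI averaged 761 ± 97.2 CPM and LI 752 ± 78.5 CPM, a log2 fold change of 0.02 ± 0.13 (SE), and the 95% interval of the fold was 0.831 to 1.23. Because both transporters are measured in the same library, their ratio does not depend on how libraries are scaled. The Slc1a2 to Slc1a3 ratio in TPM was 1.61, 1.87, 1.72 and 1.69 in HI1 to HI4, against 0.899, 1.56, 1.01 and 1.32 in LI1 to LI4. All 4 HI ratios lay above all 4 LI ratios, averaging 1.72 ± 0.110 for HI against 1.20 ± 0.299 for LI (SD, n = 4 each). This is a property of Slc1a2 as much as of the pair: the ratio of Slc1a2 to any other tested gene had all HI above all LI for 21.3% of genes. The size of the Slc1a2 to Slc1a3 ratio depends on the listed length of Slc1a2. In CPM, which is not divided by length, Slc1a2 averaged 343 and Slc1a3 761 in HI. The log2 difference of the ratio, HI minus LI, was 0.54 in counts and 0.56 in TPM.

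Glul, whose enzyme receives the glutamate that these transporters take up, was the steadiest of the 9 genes. It stood at 1499, 1456, 1331 and 1350 CPM in HI1 to HI4, against 1609, 1281, 1473 and 1625 CPM in LI1 to LI4. The HI values lay within the LI range. HI averaged 1409 ± 81.5 CPM and LI 1497 ± 159 CPM, a log2 fold change of -0.09 ± 0.11 (SE), and the 95% interval of the fold was 0.791 to 1.12. The Glul to Slc1a2 ratio in TPM was 1.88, 1.74, 1.91 and 1.41 in HI1 to HI4, against 3.85, 2.05, 2.86 and 2.33 in LI1 to LI4. All 4 HI ratios lay below all 4 LI ratios, averaging 1.74 ± 0.229 for HI against 2.78 ± 0.793 for LI (SD, n = 4 each). Both ratios contain Slc1a2 and are not independent of each other, and the size of both depends on its listed length. As given above, Slc1a2 over any other tested gene separated the groups this way for 21.3% of genes. The separation is thus not particular to Glul.

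**Figure D2:**
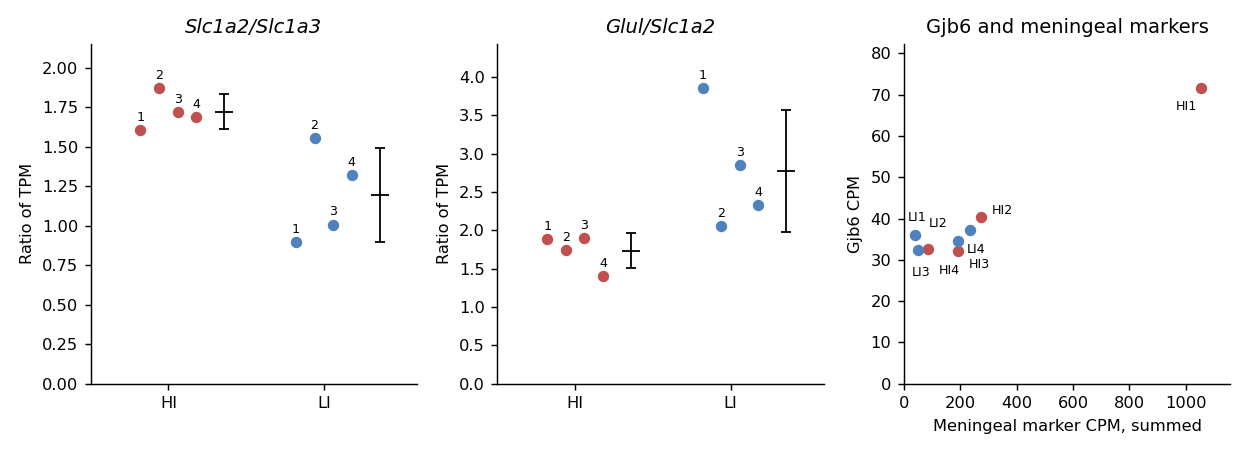
Left and middle, the ratio of Slc1a2 to Slc1a3 and of Glul to Slc1a2 in TPM in each library (points, replicate number above) with mean ± SD, and right, Gjb6 in CPM against the summed CPM of 7 meningeal marker genes in each library (red HI, blue LI). The Slc1a2 to Slc1a3 ratio is 1.61 to 1.87 in HI and 0.899 to 1.56 in LI, and HI1 stands alone at 71.6 CPM of Gjb6 and 1054 CPM of meningeal markers.

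The 2 connexins were highest in different libraries. Gja1, connexin 43, stood at 533, 474, 477 and 728 CPM in HI1 to HI4, against 485, 439, 711 and 587 CPM in LI1 to LI4. The highest library of each group was HI4 and LI3, and the groups overlapped over nearly their whole range. HI averaged 553 ± 120 CPM and LI 556 ± 121 CPM, a log2 fold change of -0.01 ± 0.19 (SE), and the 95% interval of the fold was 0.745 to 1.33.

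Gjb6, connexin 30, stood at 71.6, 40.3, 32.1 and 32.7 CPM in HI1 to HI4, against 35.9, 34.6, 32.3 and 37.3 CPM in LI1 to LI4. HI1 lay above all other libraries, which covered a narrow range in both groups. It held 692 counts, with an exact Poisson 95% interval of 641 to 746 that covers counting error only. HI averaged 44.2 ± 18.6 CPM and LI 35.0 ± 2.13 CPM, a log2 fold change of 0.34 ± 0.24 (SE), with a 95% interval of the fold of 0.868 to 1.84. Without HI1 the log2 value was -0.0014. HI1 was also the library with the most meningeal marker RNA, with a sum of 1054 CPM against 84.4 to 273 CPM in the other HI libraries and 38.4 to 234 CPM in LI. All 7 tested meningeal markers had higher values in HI. Gjb2, connexin 26, which is found in the leptomeninges as well as in astrocytes and was named here after its values were seen, stood at 62.6 CPM in HI1, at 4.93 to 15.9 CPM in the other HI libraries and at 3.45 to 12.4 CPM in LI. The part of meningeal RNA in the Gjb6 level of HI1 was not tested. The Gja1 to Gjb6 ratio in TPM was lowest in HI1, at 3.95, and was 6.23 to 11.8 in the other HI libraries and 6.73 to 11.7 in LI.

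Aqp4, the water channel of the perivascular endfeet, stood at 450, 378, 407 and 707 CPM in HI1 to HI4, against 390, 366, 638 and 541 CPM in LI1 to LI4. As for Gja1, the highest library of each group was HI4 and LI3. HI averaged 486 ± 151 CPM and LI 484 ± 129 CPM, a log2 fold change of 0.01 ± 0.24 (SE), with a 95% interval of the fold of 0.697 to 1.45. It was -0.23 without HI4 and 0.17 without LI3. The expected counts of Aqp4 and of Gja1 were not whole in any of the 8 libraries, as happens when reads match more than 1 gene, while those of the other 7 genes were whole in all libraries.

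Gfap, the filament gene, stood at 394, 361, 293 and 185 CPM in HI1 to HI4, against 350, 429, 283 and 357 CPM in LI1 to LI4. HI4 was the lowest of all libraries and the groups overlapped. HI averaged 308 ± 92.2 CPM and LI 355 ± 59.9 CPM, a log2 fold change of -0.20 ± 0.22 (SE), with a 95% interval of the fold of 0.617 to 1.22. The log2 value was -0.02 without HI4 and -0.34 without HI1.

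S100b stood at 981, 864, 974 and 1425 CPM in HI1 to HI4, against 1276, 953, 1536 and 1271 CPM in LI1 to LI4. In HI, 3 libraries lay below 3 of the LI libraries, while HI4 and LI2 broke the order. HI averaged 1061 ± 249 CPM and LI 1259 ± 239 CPM, a log2 fold change of -0.25 ± 0.19 (SE), with a 95% interval of the fold of 0.631 to 1.13. With 1 library left out the log2 value lay between -0.42 (without HI4) and -0.14 (without LI3). S100b is also expressed by some oligodendrocyte lineage cells, whose markers were highest in LI2. In LI2, S100b was the lowest of the LI libraries, at 953 CPM. All 10 oligodendrocyte markers had lower values in HI, while 3 precursor markers had higher and 3 lower values. The part of these cells in the S100b level was not tested.

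Aldh1l1, whose enzyme oxidises formyltetrahydrofolate, was the least abundant of the 9 genes, with 100 to 211 counts in HI and 110 to 223 counts in LI. It stood at 21.8, 22.5, 15.2 and 13.3 CPM in HI1 to HI4, against 23.2, 22.3, 14.0 and 16.7 CPM in LI1 to LI4. HI1, HI2, LI1 and LI2 were higher than the other 4 libraries, so the high and low values were spread over both groups. HI averaged 18.2 ± 4.63 CPM and LI 19.1 ± 4.44 CPM, a log2 fold change of -0.07 ± 0.23 (SE), with a 95% interval of the fold of 0.672 to 1.35.

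**Figure D3:**
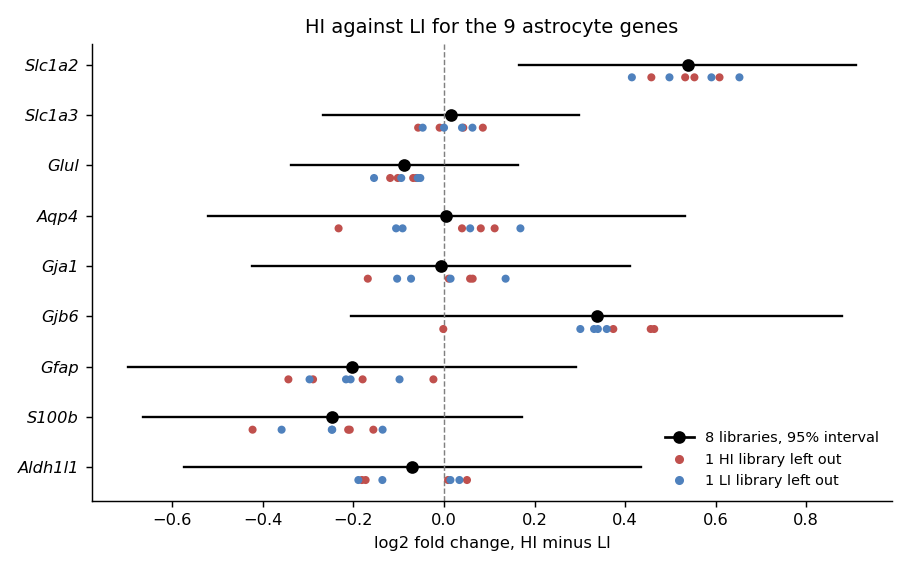
log2 fold change of each gene, HI minus LI (x axis), with its 95% interval from edgeR's quasi-likelihood fit on 8 libraries (black) and, just under it, the 8 estimates with 1 library left out (red for an HI library, blue for an LI library). Only the interval of Slc1a2, around 0.54, lies wholly above 0 before adjustment, and the estimate of Gjb6 moves to -0.0014 without HI1.

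The genes varied together in a pattern that cut across the 2 groups. Relative to each gene's mean over the 8 libraries in log2 CPM, Aqp4 was 0.59 higher in HI4 and 0.44 higher in LI3, and between -0.36 and 0.20 in the other 6. Gja1 was 0.42 higher in HI4 and 0.38 higher in LI3, and S100b 0.33 higher in HI4 and 0.43 higher in LI3. Gfap was at -0.80 in HI4, far below the other libraries, and at -0.19 in LI3, just under the -0.14 to 0.41 of the other 6. Aldh1l1 was at -0.45 in HI4 and -0.37 in LI3, and between -0.26 and 0.35 in the other 6. The same 2 libraries stood at the ends of some marker sums of other cell classes. Neuronal markers summed to 16190 CPM in HI4 and 13970 CPM in LI3, against 8495 to 11840 CPM in the other 6. Endothelial markers summed to 279 CPM in both, against 365 to 383 CPM in the other 6. For oligodendrocyte, precursor, microglial, meningeal and ependymal markers, HI4 and LI3 were not the 2 highest or 2 lowest. HI4 and LI3 were the libraries with the least ribosomal RNA, at 0.406% and 0.418% of counts. HI4 also had the steepest slope of log2 CPM on log2 transcript length, at 0.132, and LI3 had 0.00546. The part of ribosomal RNA share and of the length slope in this pattern was not tested.

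**Figure D4:**
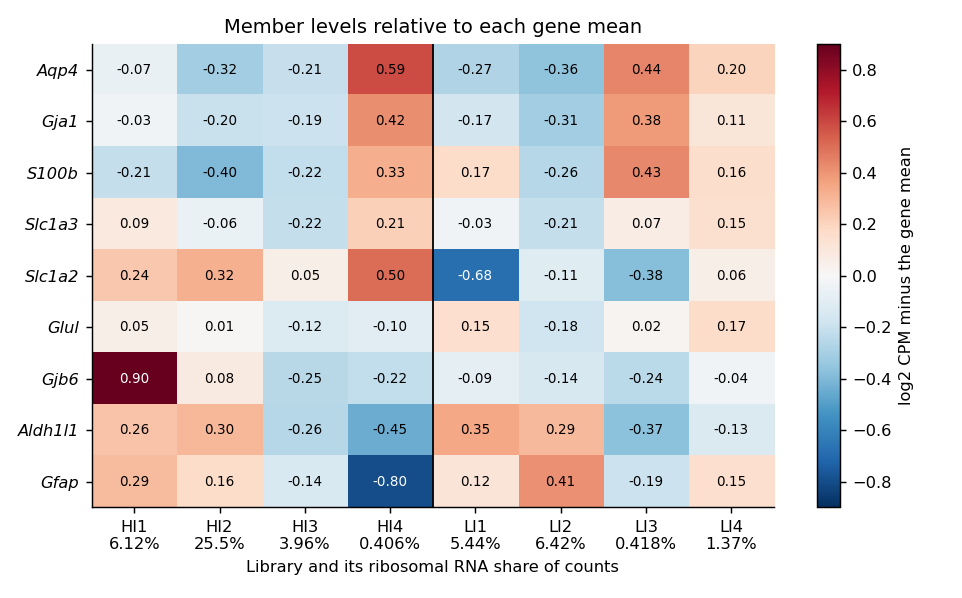
log2 CPM of each gene minus its mean over the 8 libraries (colour and printed value), with genes in rows and libraries in columns, HI left of LI, and the ribosomal RNA share of counts under each library name. HI4 and LI3 are high for Aqp4, Gja1 and S100b and low for Aldh1l1, Gfap is lowest in HI4 at -0.80, and the single highest value, 0.90, is Gjb6 in HI1.

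Across the 8 libraries, 10 of 36 pairs of genes had a Pearson correlation with an adjusted p below 0.1 (exact permutation, two-sided, Benjamini-Hochberg over 36 pairs), 6 of them positive and 4 negative. On log2(TPM + 1) there were 6 such pairs, all positive, and 0 negative. All pairs share the same libraries and their depth. The share of such pairs among all tested genes was not computed, so the count cannot be called particular to these genes. The first principal component of all genes held 51.7% of the variance. By Spearman's rho 1 of the 36 passed. That pair, Aqp4 and Gja1, had r = 0.99 (exact permutation p = 7.44e-05, adjusted p = 0.00268) and rho = 0.976 (exact permutation p = 3.97e-04, adjusted p = 0.0143). Without HI4 and LI3, the 2 libraries farthest from the median of Aqp4, r was 0.969. Gfap and Aldh1l1 had r = 0.820 (exact permutation p = 0.00263, adjusted p = 0.0473) and rho = 0.690 (exact permutation p = 0.0694, adjusted p = 0.227), and r was 0.699 without the same 2 libraries.

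The other 8 pairs, with adjusted p from 0.0821 to 0.0926 by exact permutation, differed in how far they rested on HI4 and LI3. The 4 negative ones paired Aqp4 or Gja1 with Gfap or Aldh1l1, at r from -0.829 to -0.755 over all 8 libraries, and without HI4 and LI3 these came to -0.122 for Aqp4 with Gfap, -0.123 for Gja1 with Gfap, -0.533 for Aqp4 with Aldh1l1 and -0.388 for Gja1 with Aldh1l1. S100b had r = 0.839 with Gja1 and 0.822 with Aqp4, and 0.564 and 0.553 without HI4 and LI3. Slc1a3 had r = 0.818 with Gja1 and 0.807 with Aqp4, and 0.901 and 0.793 without them. Slc1a2 was not part of this pattern: with the other 8 genes its r lay between -0.377 and 0.290, and the smallest adjusted p of these was 0.665 by exact permutation.

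Among the 11622 other tested genes, the 6 whose log2 CPM was most like the mean of the 9 centred log2 CPM values over the 8 libraries were Pdpn (Pearson r = 0.954), Rhoq (0.927), Tpm2 (0.912), Ttc12 (0.909), Rab27a (0.895) and Sh3d21 (0.893). They were picked as the highest of many, so these values are a description only. The mean of the 9 does not carry the HI4 and LI3 pattern, being 0.0531 in HI4 and 0.018 in LI3. It was highest in HI1, at 0.168, where Gjb6 was at 0.90.

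The start regions of the pair that varied most closely, Aqp4 and Gja1, and of the pair lowest in HI4, Gfap and Aldh1l1, are shown as RefSeq gives them for the build GRCr8. Each is the 250 bases before the annotated start, 5′ to 3′ on the gene's strand, in lower case, with matches to the searched motifs in capitals. The windows lie at chr18:6798843-6799092 (minus strand) for Aqp4, chr20:36302314-36302563 (plus strand) for Gja1, chr10:88361662-88361911 (minus strand) for Gfap and chr4:124616970-124617219 (plus strand) for Aldh1l1. The authors' build is unknown here, so these coordinates belong to the reference sequence and not to the counts.
Aqp4: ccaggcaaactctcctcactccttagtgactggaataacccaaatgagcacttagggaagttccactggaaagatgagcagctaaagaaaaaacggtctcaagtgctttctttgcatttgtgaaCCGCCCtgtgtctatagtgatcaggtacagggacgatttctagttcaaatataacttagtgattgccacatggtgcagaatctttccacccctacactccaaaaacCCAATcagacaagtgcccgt
Gja1: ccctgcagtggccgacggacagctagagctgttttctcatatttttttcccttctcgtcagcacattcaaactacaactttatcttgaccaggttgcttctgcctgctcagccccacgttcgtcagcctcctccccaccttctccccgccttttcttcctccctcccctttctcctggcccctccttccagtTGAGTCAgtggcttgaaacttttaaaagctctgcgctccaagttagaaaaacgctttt
Gfap: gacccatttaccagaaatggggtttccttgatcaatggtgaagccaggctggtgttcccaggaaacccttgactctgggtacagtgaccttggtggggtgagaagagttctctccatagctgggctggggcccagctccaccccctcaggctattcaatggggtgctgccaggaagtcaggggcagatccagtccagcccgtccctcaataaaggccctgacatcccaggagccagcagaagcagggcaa
Aldh1l1: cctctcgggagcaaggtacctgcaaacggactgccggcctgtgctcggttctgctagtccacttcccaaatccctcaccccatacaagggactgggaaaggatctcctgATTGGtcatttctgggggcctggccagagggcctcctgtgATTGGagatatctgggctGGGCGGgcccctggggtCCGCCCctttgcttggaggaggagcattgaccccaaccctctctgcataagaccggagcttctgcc

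Each window was searched on both strands for 6 short motifs, and the share of 27457 RefSeq rat windows of the same length that hold each is given for scale. The letters TATAAA, known as the TATA box, were held by 13.1% of windows. The letters CCAAT were held by 34.3%. A GC box, spelled GGGCGG, was held by 32.4%. The STAT motif searched was TTCNNNGAA, held by 7.52%. The AP-1 motif was spelled TGANTCA and was held by 6.36%. The half-site of nuclear factor I, spelled TTGGC, was held by 40.3%. Aqp4 held a CCAAT box 20 to 16 bases before its start and a GC box 126 to 121 bases before it, on the opposite strand. Gja1 held an AP-1 match, TGAGTCA, 58 to 52 bases before its start. Aldh1l1 held 2 CCAAT boxes and 2 GC boxes, and the Gfap window held none of the 6 motifs. So Aqp4 and Gja1 shared none of the 6 motifs in these windows, while Aqp4 and Aldh1l1 shared the CCAAT motif and the GC box. Over the 9 genes, CCAAT boxes were found in 4, GC boxes in 4, nuclear factor I half-sites in 2 (in S100b 1 of these overlaps a CCAAT box), an AP-1 match in 1, and the TATA box and the STAT motif in 0. A match is only a match of letters.

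Genes that work with the 9 were taken from 7 lists, and 0 of their members passed the threshold in either direction by edgeR's quasi-likelihood test. In the glutamate and glutamine cycle, 8 of 20 genes had higher and 12 lower values in HI, and the median log2 difference was -0.03. Slc17a7, the main vesicular glutamate transporter of cortex, stood at 1324 ± 322 CPM in HI against 1221 ± 202 CPM in LI, Glud1, glutamate dehydrogenase, at 452 ± 48.3 CPM in HI against 474 ± 27.9 CPM in LI, and Got1, an aspartate transaminase, at 277 ± 46.7 CPM in HI against 309 ± 45.9 CPM in LI (SD, n = 4 each). In 1 gene of this list HI lay above LI without overlap, as in 2.31% of all genes. It was Slc38a1, a glutamine transporter of neurons, named after its values were seen, with 92.2 to 129 CPM in HI and 78.5 to 92.1 CPM in LI and a log2 fold change of 0.33 ± 0.13 (SE, unadjusted p = 0.0277 by edgeR's quasi-likelihood test). The nearest libraries were HI2 at 92.24 CPM (558 counts) and LI2 at 92.12 CPM (730 counts). This lack of overlap therefore depends on how the libraries were scaled.

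Of the genes that anchor Aqp4 at the endfoot and their neighbours, 8 of 12 had higher and 4 lower values in HI, with a median of 0.11. Mlc1, a membrane protein of the perivascular endfoot, stood at 247 ± 66.4 CPM in HI against 270 ± 45.3 CPM in LI, Dag1, dystroglycan, at 202 ± 25.4 CPM in HI against 185 ± 20.3 CPM in LI, and Agrn, agrin, at 198 ± 36.6 CPM in HI against 186 ± 28.01 CPM in LI. HI lay above LI without overlap in 1 gene, as in 2.31% of all genes. It was the syntrophin gene Sntb2, named after its values were seen. It had 6.16 to 7.94 CPM in HI and 3.45 to 6.04 CPM in LI. The nearest libraries, HI3 and LI1, both held 58 counts of it, so their order depends on how the libraries were scaled. Of the other gap junction genes, 4 of 9 had higher and 5 lower values in HI, with a median of -0.02. Panx2, a pannexin, stood at 175 ± 24.3 CPM in HI against 186 ± 12.4 CPM in LI, and the scaffold gene Tjp1 at 198 ± 69.5 CPM in HI against 171 ± 41.8 CPM in LI. Panx1 stood at 38.1 ± 5.69 CPM in HI against 38.6 ± 4.22 CPM in LI.

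Filament and reactive astrocyte genes had higher values in HI in 10 of 15 and lower values in 5, with a median of 0.06. Vim, vimentin, stood at 78.4 ± 68.5 CPM in HI against 41.5 ± 17.2 CPM in LI, with an SD in HI nearly as large as its mean, and S100a10 at 24.9 ± 6.51 CPM in HI against 24.0 ± 3.91 CPM in LI. Plec, plectin, stood at 418 ± 52.3 CPM in HI against 373 ± 55.8 CPM in LI. The summed level of the 15 genes was 686 to 918 CPM in HI and 607 to 817 CPM in LI. It was highest in HI1, at 918 CPM, the library with the most meningeal marker RNA, and 897 CPM in HI2. The part of meningeal RNA in these values was not tested. Another 9 genes of this list were too low to test, and Serpina3n and Ggta1 of these had a count of 0 in all 8 libraries. In the folate list 6 of 15 genes had higher and 9 lower values (median -0.05). Atic stood at 44.2 ± 7.73 CPM in HI against 43.2 ± 6.74 CPM in LI, Gart at 40.6 ± 6.32 CPM in HI against 42.0 ± 10.1 CPM in LI and Shmt2 at 22.8 ± 5.14 CPM in HI against 22.3 ± 4.20 CPM in LI. Of the other S100 genes 3 of 7 had higher and 4 lower values (median -0.28), with S100a16 at 46.0 ± 14.0 CPM in HI against 55.6 ± 10.96 CPM in LI and S100a1 at 7.34 ± 1.24 CPM in HI against 9.67 ± 0.582 CPM in LI.

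Other genes enriched in astrocytes had lower values in HI in 21 of 28 and higher in 7, with a median of -0.09, beside a median of -0.01 over all genes. Apoe, apolipoprotein E, stood at 2450 ± 413 CPM in HI against 2871 ± 229 CPM in LI, and Cst3, cystatin C, at 1315 ± 157 CPM in HI against 1681 ± 154 CPM in LI, both genes that microglia also express. Sparcl1 stood at 2591 ± 733 CPM in HI against 2611 ± 580 CPM in LI. In 0 of the 28 did HI and LI not overlap. Microglial markers had lower values in HI in all 10 genes, and their part in the Apoe and Cst3 values was not tested.

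**Figure D5:**
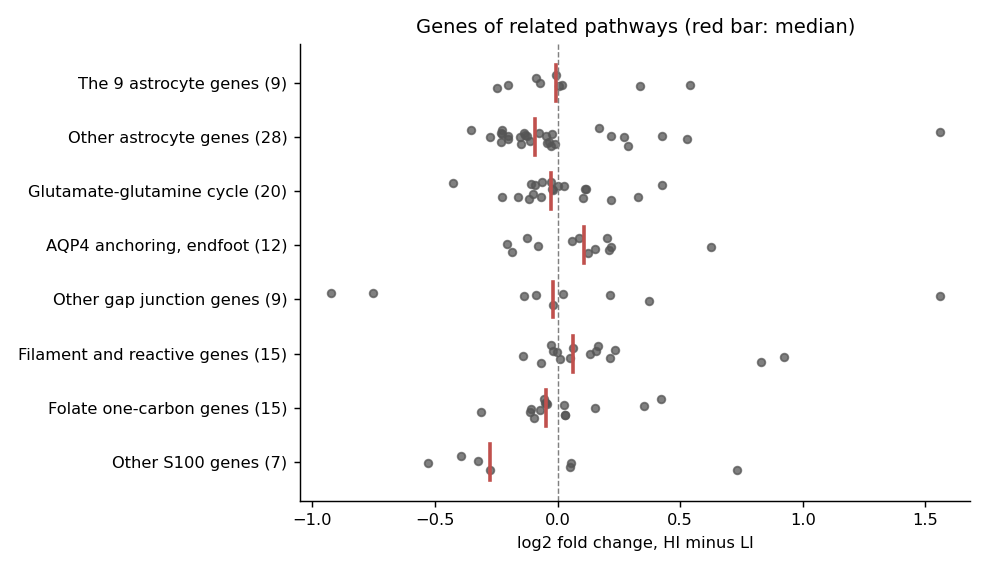
log2 fold change, HI minus LI (x axis), of every tested gene in the 9 astrocyte genes and in 7 lists of related genes (number tested in brackets), with the list median as a red bar; vertical scatter within a row has no meaning. The medians lie between -0.28 for the other S100 genes and 0.11 for the AQP4 anchoring genes, and 0 of the genes passed the threshold.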

How the data were processed

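The submitters' processing notes list Bowtie2 2.1.0. Not given in the sources used here: quantification program, genome build, annotation and use of strand. Per the file headers, each deposited table holds per gene an expected count (an estimate that need not be whole), a TPM value, an FPKM value (not used) and a mean transcript length. The deposited expected counts were rounded. The authors scaled TPM over all listed genes, ribosomal RNA included, and it was used here to compare genes and for ratios.

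Libraries were scaled by TMM in edgeR 4.0.16 (R 4.3.3) and filtered with filterByExpr (minimum count 10, minimum total 15). The contrast of HI minus LI was fitted with edgeR's quasi-likelihood method over 11631 genes without covariates, at a Benjamini-Hochberg adjusted p of 0.1. SE is the absolute log2 fold change over the square root of F, and intervals use the t quantile at the total degrees of freedom. Log2 CPM used a prior count of 2. Correlations were tested by enumerating all pairings. The fit was tested on simulated counts. Alternatives included DESeq2 1.42.0, limma 3.58.1, other filters, covariates and leaving out each library. No pair of libraries in a group agreed within sampling noise.

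The members and lists were chosen with earlier results of these data known. Genes named beside the 9 are the 3 of each list with the highest mean TPM (a marker list's highest gene only), any past the threshold, and the 6 most alike in pattern. Other names are marked. Tables matched RefSeq symbols (GRCr8) for all 9 genes.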

Additional observations from a re-analysis of the deposited data

Results flagged for a closer look

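Among 32 sets of 4 libraries checked (each of the 9 genes, 5 ratios, the ribosomal RNA share and the length slope, in HI and in LI), 1 held a library whose gap to the next was above Dixon's critical share of the range for 4 values. About 1 in 20 such sets is expected by chance. It was the length slope of HI4, at 0.132 log2 CPM per doubling of transcript length, with -0.00781 to 0.00898 in the other HI libraries and -0.0836 to 0.00546 in LI. In HI4, Slc1a2, Slc1a3, Aqp4, Gja1 and S100b were the highest of the HI libraries and Gfap and Aldh1l1 the lowest. Without HI4 the log2 fold change of Slc1a2 was 0.46. The Gjb6 level of HI1, 71.6 CPM, did not exceed that share.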

How the results depend on the processing

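The 0 genes past the threshold by edgeR's quasi-likelihood test became 38 with DESeq2 (36 higher, 2 lower), 6596 with Fisher's exact test on summed counts (1479 higher, 5117 lower) and 440 with the log2 ribosomal RNA share as covariate (322 higher, 118 lower). It stayed 0 in the other alternatives, limma-voom included. Members past it became 9 with Fisher's test and 1 (Slc1a2) with the log2 share. Scaling by library totals moved the median of all genes to -0.12 and Fisher's test to -0.11. The covariate on the log2 share, limma on log2 CPM and the fits without both HI4 and LI3 were chosen after seeing the data. The 10 correlated pairs became 6, all positive, on log2(TPM + 1).

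Slc1a2, Gfap, S100b and Glul kept their sign in all 28 alternatives. Near 0, signs changed. Aqp4 (0.01) was -0.01 with upper-quartile factors, -0.092 with library totals, -0.0124 and -0.0125 on log2(TPM + 1) and log2(TPM + 0.1), -0.0015 with limma-voom, -0.10 by Fisher's test, -0.0668 with the ribosomal RNA covariate without HI4, -0.0767 with the length slope removed, -0.0019 with limma on log2 CPM and -0.0703 without HI4 and LI3. Slc1a3 (0.02) was -0.0917 with library totals, -0.0002 on both TPM scales, -0.10 by Fisher's test, -0.0315 with the ribosomal RNA covariate without HI4, -0.0382 with the length slope removed and -0.0339 without HI4 and LI3. Gja1 (-0.01) was 0.11 with the ribosomal RNA covariate, linear or log2, 0.22 (linear) and 0.14 (log2) without LI3, and 0.11 (log2) without HI4. The cause was not tested. Leaving out 1 library gave -0.0569 to 0.0859 for Slc1a3, -0.23 to 0.17 for Aqp4, -0.17 to 0.14 for Gja1, -0.0014 to 0.46 for Gjb6 and -0.19 to 0.0509 for Aldh1l1.

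The labels do not say that a replicate number marks anything shared. The deviations of same-numbered HI and LI libraries correlated at 0.215, 0.536, -0.0532 and 0.0586, so the numbers were not taken to pair libraries. These correlations cannot show a split between low and high numbers. Ribosomal RNA took 5.44% to 25.5% of counts in HI1, HI2, LI1 and LI2, against 0.406% to 3.96% in the other libraries. On the first principal component HI1, HI2, LI1 and LI2 lay at -25.89 to -12.96, and the others at 0.4973 to 50.96. Aldh1l1 split the libraries in the same way. The cause of this split was not tested. With the replicate block, 0 genes passed and Slc1a2 stood at 0.56 (edgeR adjusted p = 0.979).

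With 4 libraries in each group, the unadjusted 95% intervals of the fold span 0.831 to 1.23 for Slc1a3 and 0.697 to 1.45 for Aqp4. Aldh1l1 rests on 100 to 223 counts a library.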

Other observations

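The listed mean transcript length, which in genes with several transcripts depends on their estimated mix, differed between libraries in 3 of the 9 genes. For Slc1a3 it was 3725 bases in HI4, 3861 to 3909 bases in the other HI libraries, 3730 bases in LI3 and 3828 to 3914 bases in the other LI libraries. For Aqp4 it was 4884 bases in HI4, 4913 to 4988 bases in the other HI libraries, 4879 bases in LI3 and 4899 to 4963 bases in the other LI libraries. In both genes the shortest value of each group was thus in HI4 and LI3, the libraries with the least ribosomal RNA, and HI and LI overlapped. For Slc1a2 the values were 1094 to 1101 bases in HI and 1100 to 1107 bases in LI.

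The Gfap to Aldh1l1 ratio in TPM was 13.9 to 19.2 in HI and 15.03 to 21.4 in LI. The Aqp4 to Aldh1l1 ratio was 8.85 to 28.5 in HI and 8.67 to 24.4 in LI, highest in HI4 and LI3.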
